A study of Homo sapiens with 30 samples.

Results

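The genes described here code for proteins that build ribosomes in the nucleolus. They were chosen by symbol: NOL, NOP, UTP, RRP or RRS followed by a digit, together with NOLC1, GNL2, GNL3, GNL3L, BOP1, PES1, WDR12, WDR43, FBL, NCL, NPM1 and DKC1, each with a messenger RNA entry in the deposited table. The rule found 48 genes among 22383, of which 17170 had a read. By role, 21 belong to the small subunit processome and 10 to large subunit assembly. The PeBoW complex, the nucleolar GTPases, the box C/D snoRNP core and the abundant nucleolar proteins have 3 each, and the H/ACA snoRNP core has 2. Another 3 (NOL3, NOL4 and NOL4L) match by symbol but have no known part in ribosome assembly. Enough reads for a test of level were present for 46. BOP1, with 2 reads over all libraries, and NOL4, with 50, were too low.

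The cells were 22Rv1, an established line from a human prostate tumour that grows without androgen, and the measurement was SLAM-seq. All cells first took up 800 µM 4-thiouridine during 30 min, which is where the 0 h libraries stop. The others then received fresh medium with 800 µM 4-thiouridine and, by group, DMSO alone, KB742 at 1.2 µM or KI-ARv-03 at 4 µM, and were harvested after 2, 4 or 8 h. Both compounds are inhibitors of CDK9, a kinase that releases paused RNA polymerase II. Each of the 10 groups has 3 libraries, 30 in all, every one of them labelled with 4-thiouridine. Iodoacetamide turns the incorporated 4-thiouridine into T-to-C conversions in the reads, so a transcript's conversion grows as newly made RNA replaces older RNA. The label fields contradict each other in places: 8 of the 9 samples titled 4 h carry another time in a second field, 1 field gives KB742 another dose, and the treatment text names DMSO for all samples. Compound and time were taken from the titles and doses from the protocol. Nothing in the labels says that replicates were separate cultures, so p-values measure only the spread between these libraries, which may be technical. The 0 h libraries precede the change of medium, so time, new medium, DMSO and longer labelling cannot be told apart in any comparison with 0 h.

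Levels are reads scaled to a common library total and then by TMM factors (trimmed means of gene ratios), written CPM. They are shares of a library and not RNA per cell. Summed over all transcript entries, libraries held 3641264 to 10090430 reads. Entries of the same gene can repeat the same reads (the 3 entries of GNL2 had equal summed signals), so these sums overstate depth. On the genes kept, with a single entry each, lay 1410618 to 3961200 reads. Of 10 luminal prostate markers, 10 averaged at least 1 CPM (summed level 980 to 1753 CPM), against 0 of 4 basal, 3 of 6 stromal, 0 of 4 endothelial and 2 of 5 immune markers (summed levels of at most 2.46, 46.3, 0.400 and 6.27 CPM). Within their groups, 3 libraries stood apart: replicate 3 at 0 h and KB742 2 h replicate 2 had over 1000 fewer genes at matched depth than both other libraries of the group, and in KI-ARv-03 4 h replicate 1 the mean conversion was 1.17%, against 0.374% and 0.416%. Results that move without them are given both ways.

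Ribosome assembly begins when RNA polymerase I transcribes a long precursor RNA. The small subunit processome, made of the UTP proteins and their partners, folds and cuts its first part, while the PeBoW complex (PES1, BOP1 and WDR12), the GTPases and factors such as RRS1 and NOP16 assemble the large subunit. Box C/D particles with FBL, NOP56 and NOP58 methylate the RNA, and H/ACA particles with DKC1 and NOP10 convert uridines to pseudouridines. Fast-growing tumour cells need many ribosomes, and MYC is a known activator of many of these genes.

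Promoter sequences are shown because 22 of the members were lower in level by 8 h with DMSO (below) and because MYC and its partner MAX bind the E-box CACGTG. Sequences of 40 of the 48 members were matched in the RefSeq promoter table (GRCh38.p14), which holds 250 bases before and 50 bases from the transcription start. A member counted for a site if any of its promoters held it, while the share of all promoters counts each promoter by itself. The E-box, searched in these letters, which read alike on both strands, was present in 16 of the 40 (40%), against 7.26% of the 35116 promoters in the table. In the 250 bases before the start alone, it was in 7 members (17.5%) and in 6.35% of all promoters. CCGGAAGT on either strand, a site of ETS factors, was present in 4 (10%) and 4.14%. A site of NRF1, searched on both strands as well, was present in 3 (7.5%) and 1.24%. Of the 19 matched members whose level was lower then, 7 held the E-box, and of the 20 tested members that were not, 9 did. The ETS site was in 0 of those 19 and 4 of those 20, and the NRF1 site in 0 and 3. The last 100 bases before the start follow for 6 members, with the E-box in capitals. NOL8 and UTP20 fell and hold it, NOL11 and UTP3 fell and lack it in the window, and UTP4 and NOP10 hold it and did not pass the test.
NOL8 (chr9:92325351-92325450, minus strand): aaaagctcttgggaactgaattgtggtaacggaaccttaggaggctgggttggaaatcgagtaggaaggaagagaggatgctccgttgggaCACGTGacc
UTP20 (chr12:101280005-101280104, plus strand): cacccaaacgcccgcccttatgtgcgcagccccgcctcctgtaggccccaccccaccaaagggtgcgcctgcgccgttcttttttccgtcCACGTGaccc
NOL11 (chr17:67717836-67717935, plus strand): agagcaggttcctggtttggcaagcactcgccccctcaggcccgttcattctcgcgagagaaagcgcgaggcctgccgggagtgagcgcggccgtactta
UTP3 (chr4:70688432-70688531, plus strand): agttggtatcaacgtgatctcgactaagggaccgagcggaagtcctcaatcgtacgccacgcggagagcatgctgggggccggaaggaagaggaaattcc
UTP4 (chr16:69132549-69132648, plus strand): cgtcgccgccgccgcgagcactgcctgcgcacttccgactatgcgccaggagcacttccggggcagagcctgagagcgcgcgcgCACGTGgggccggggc
NOP10 (chr15:34343137-34343236, minus strand): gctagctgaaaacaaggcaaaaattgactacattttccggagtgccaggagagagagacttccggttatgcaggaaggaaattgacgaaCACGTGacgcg
In NOL8, UTP20, NOP10 and UTP4 the E-box begins 9, 10, 11 and 16 bases before the start. In WDR43, GNL2, FBL and GNL3 it begins at base 4, 4, 7 and 7, counting the start as 1.

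How did the level of these genes move with time when no inhibitor was given? By 8 h with DMSO, 9 of 21 factors of the small subunit processome and 8 of 10 of large subunit assembly had fallen, while the abundant nucleolar proteins NPM1 and NOLC1 had risen under TMM scaling, though not with plain library sizes, where NOLC1 turned to -0.01. In limma's fit over all genes (Benjamini-Hochberg adjusted p under 0.05), 22 of 46 members were lower and 3 higher at 8 h than at 0 h, against 29.2% of all 11406 genes lower and 20.1% higher. The median log2 difference of the members was -0.64, and that of all genes -0.15. At 4 h 10 members were lower and 1 higher (14.6% and 5.73% of all genes), and the 10 that were lower at 4 h were also lower at 8 h. At 2 h limma called 0 members (2.76% of all genes in either direction), with 6 at an unadjusted p under 0.05 (1536 of all 11406 genes). There edgeR called 1 member (6 of all genes higher and 206 lower) and DESeq2 called 4 (20 and 479).

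The scaling sets where these differences are centred. With plain library sizes in place of TMM factors, the median of all genes at 8 h moved by -0.73, and with the CPM as deposited by -0.58. The members then split into 0 higher and 36 lower, or 0 and 35, and all genes into 462 higher and 5230 lower, or 433 and 4909. The members' median became -1.41 and -1.28, beside -0.88 and -0.73 for all genes. At 4 h these scalings gave 0 members higher and 15 or 14 lower. All genes then split into 122 higher and 2512 lower, or 66 and 2740, against 654 and 1669 with TMM.

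**Figure D1:**
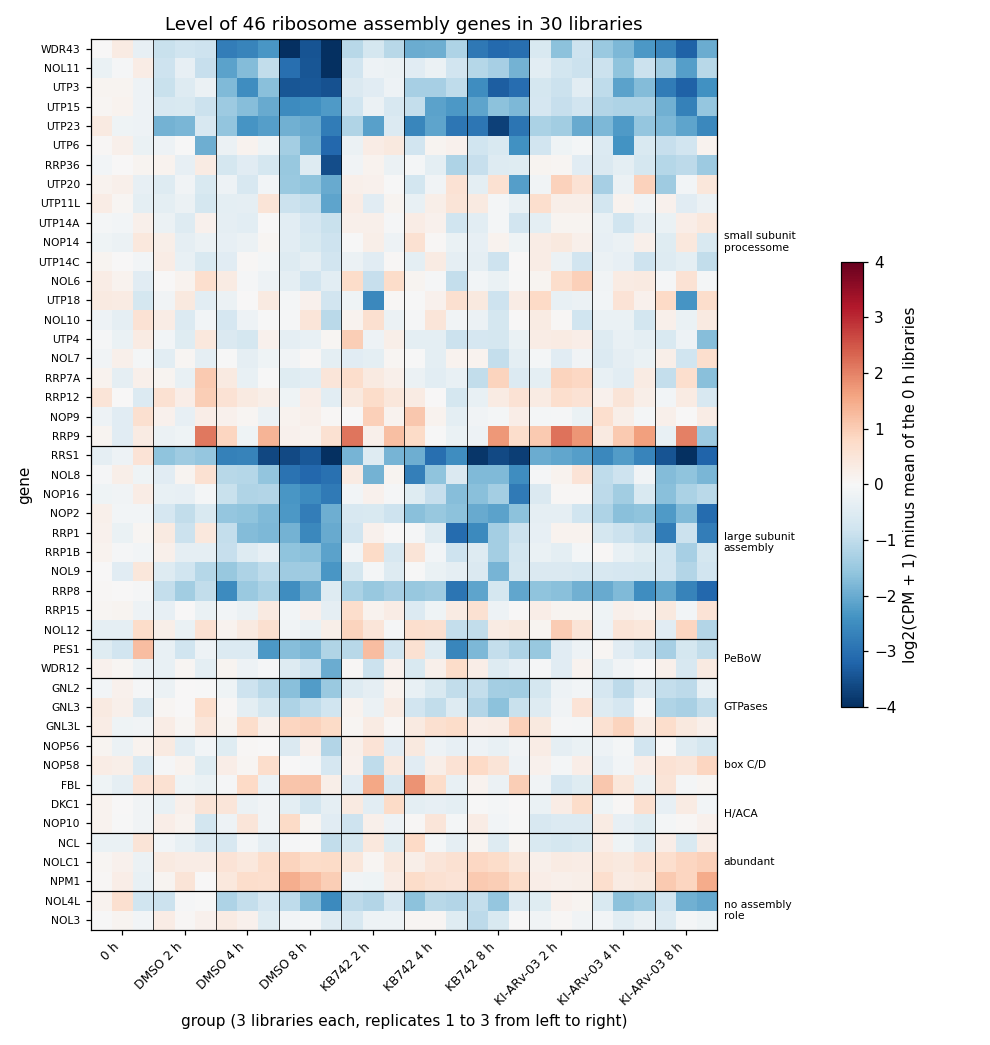
Level of the 46 tested genes (rows, by role) in the 30 libraries (columns, 3 per group), as log2(CPM + 1) minus the mean of the 0 h libraries; blue is lower and red higher. The upper rows of the small subunit processome and nearly all rows of large subunit assembly darken from 2 to 8 h with DMSO, and the rows of NOLC1 and NPM1 redden under this TMM scaling (with plain library sizes NOLC1 is at -0.01 at 8 h).

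Among the 21 factors of the small subunit processome, 9 fell by 8 h with DMSO and 0 rose, and the group's median log2 difference was -0.61. WDR43, also known as UTP5, belongs to the t-UTP subcomplex that joins the precursor RNA first. Its level was 73.7, 91.2 and 58.1 CPM at 0 h, 39.2, 41.3 and 40.6 CPM at 2 h, 9.85, 10.8 and 13.7 CPM at 4 h, and 2.50, 5.83 and 0 CPM at 8 h with DMSO. Each time point lay wholly below the one before, and the fall by 8 h was -4.69 ± 0.45 on the log2 scale (SE; limma adjusted p = 1.85e-08). The 0 in replicate 3 allows a level of up to 2.78 CPM, the worth of 3 reads there.

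NOL11, a partner of WDR43 in the t-UTP subcomplex, stood at 39.2, 45.8 and 58.6 CPM at 0 h and at 4.99, 3.50 and 0 CPM at 8 h with DMSO (log2 difference -4.01 ± 0.45, limma adjusted p = 1.67e-07). At 4 h it was at 9.85, 13.6 and 23.2 CPM. UTP3, a processome subunit, went from 67.6, 67.5 and 53.9 CPM to 33.3, 43.6 and 52.9 CPM at 2 h, 17.7, 10.4 and 19.0 CPM at 4 h and 4.99, 5.05 and 4.63 CPM at 8 h (-3.43 ± 0.31, limma adjusted p = 6.05e-09). For UTP3 too, the libraries of 4 h lay below those of 2 h, and those of 8 h below those of 4 h. UTP15, another t-UTP protein, and UTP23 were already lower at 4 h (-1.72 ± 0.33, limma adjusted p = 5.42e-04, and -2.05 ± 0.44, 0.00152). UTP6, UTP11L, UTP20 and RRP36 completed the 9, UTP20 not without DMSO 8 h replicate 3 (adjusted p = 0.0515). These low levels rest on few reads: in the 3 DMSO libraries of 8 h, WDR43 had 4, 15 and 0 reads and NOL11 had 8, 9 and 0, against at least 223 and 128 in each library of 0 h.

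Of the 10 factors of large subunit assembly, 8 fell by 8 h with DMSO and 0 rose, with a median log2 difference of -1.99. RRS1, which helps to bring the 5S RNA particle into the large subunit, had 79.8, 89.7 and 151.5 CPM at 0 h. It had 33.0, 37.4 and 34.8 CPM at 2 h, 14.8, 15.2 and 7.23 CPM at 4 h, and 7.49, 8.94 and 1.85 CPM at 8 h. The 2 h libraries already lay below all 0 h libraries, though the adjusted p at 2 h was 0.0766. The differences were -3.02 ± 0.46 at 4 h (limma adjusted p = 4.97e-05) and -4.06 ± 0.46 at 8 h (2.04e-07).

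NOL8, a nucleolar protein of pre-rRNA processing, fell from 20.8, 25.4 and 18.8 CPM to 1.87, 1.55 and 1.85 CPM (-3.03 ± 0.48, limma adjusted p = 1.36e-05). Its levels at 8 h rest on 3, 4 and 2 reads, against 68, 124 and 72 at 0 h. NOP16 fell from 122.3, 125.5 and 171.3 CPM to 73.4, 59.2 and 60.9 CPM at 4 h and 26.8, 23.3 and 18.5 CPM at 8 h (-2.56 ± 0.32, limma adjusted p = 8.06e-07). RRP8, a methyltransferase of the large subunit RNA, was lower at 4 h (-1.76 ± 0.47, limma adjusted p = 0.00948), but not without DMSO 4 h replicate 1 (-1.37, adjusted p = 0.0725). The other falls were NOP2, a cytosine methyltransferase, NOL9, a polynucleotide kinase, RRP1 and RRP1B. RRP15 (-0.10) and NOL12 (-0.05) did not pass. Of the genes without a role in assembly, NOL4L was lower at 8 h and NOL3 did not pass.

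The PeBoW complex could be read through PES1 and WDR12 only. WDR12 fell from 48.3, 45.2 and 35.9 CPM to 30.0, 23.7 and 10.2 CPM (log2 difference -1.10 ± 0.37, limma adjusted p = 0.0150). That call was lost without 0 h replicate 1 (-1.03, 0.0518 adjusted) or DMSO 8 h replicate 3 (-0.69, 0.133). PES1 stood at 37.6, 30.3 and 126.3 CPM at 0 h and 15.6, 14.0 and 22.2 CPM at 8 h (-1.58 ± 0.64, limma adjusted p = 0.0440). Its highest value is that of the library with few genes, replicate 3 at 0 h, and without that library the difference was -0.99 (adjusted p = 0.234). It was also lost without DMSO 8 h replicate 1 (-1.52, 0.0962) or replicate 2 (-1.46, 0.110). PES1 reached 125 CPM in KB742 2 h replicate 2, the other library with few genes, and 80.9 CPM in KB742 4 h replicate 1, against 7.69 to 45.5 CPM in 2 h and 4 h libraries other than KI-ARv-03 4 h replicate 1 (55.7).

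**Figure D2:**
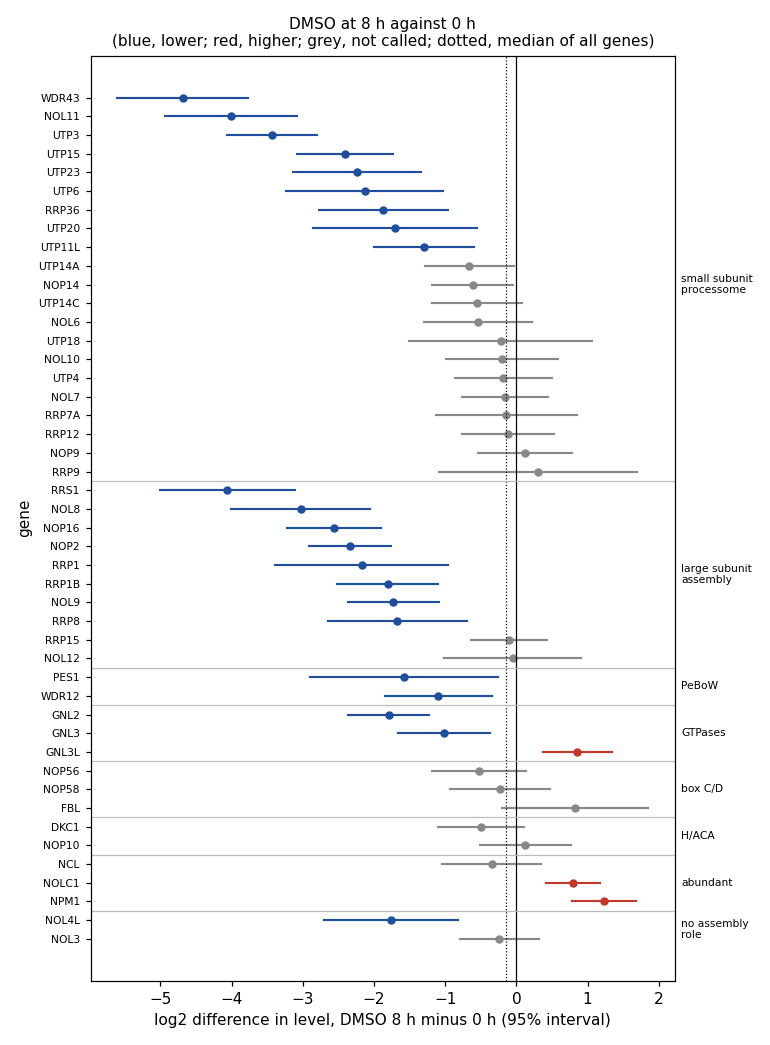
Log2 difference in level between DMSO at 8 h and 0 h for each tested gene (point) with its 95% interval (bar), by role; blue is called lower, red called higher, grey not called, and the dotted line is the median of all genes. WDR43, RRS1 and NOL11 lie below -4, and NPM1, NOLC1 and GNL3L are the genes to the right of 0 that were called, as they were with DESeq2 but not with plain library sizes or the CPM as deposited.

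Nucleolar GTPases split. GNL2, which escorts the large subunit out of the nucleolus, fell from 169, 202 and 173 CPM to 56.2, 37.7 and 64.0 CPM (-1.80 ± 0.27, limma adjusted p = 9.63e-06). GNL3, or nucleostemin, fell from 49.2, 44.2 and 25.0 CPM to 15.6, 18.3 and 21.3 CPM (-1.02 ± 0.32, limma adjusted p = 0.00965), and without 0 h replicate 1 the adjusted p was 0.0544 (-0.85). GNL3L, its close relative, was named after its values were seen. It rose from 137, 99.8 and 102 CPM to 204, 212 and 192 CPM (0.85 ± 0.24, limma adjusted p = 0.00425).

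The snoRNP core proteins that the symbol rule takes passed the test in neither direction at 8 h, 0 of 3 for box C/D and 0 of 2 for H/ACA. Among snoRNP proteins that the rule leaves out, SNU13 (0.99, limma adjusted p = 0.00155) and NHP2 (2.14, 1.93e-05) were higher under TMM scaling. GAR1 was lower (-0.60, limma adjusted p = 0.0414). FBL, the methyltransferase of box C/D particles, was at 755, 665 and 1260 CPM at 0 h and 1839, 1898 and 1006 CPM at 8 h, and the groups overlapped (0.82, 95% interval -0.21 to 1.86). It was highest, at 2514 and 2970 CPM, in KB742 2 h replicate 2 and KB742 4 h replicate 1, the libraries in which PES1 was also high. NCL, or nucleolin, was at 924 CPM in replicate 3 of 0 h and 1109 CPM in KB742 4 h replicate 1, against 323 to 855 CPM in all others. Whether what sets these libraries apart bears on FBL, NCL and PES1 was not tested. NOP56 (95% interval -1.19 to 0.13), NOP58 (-0.93 to 0.48), DKC1 (-1.10 to 0.11) and NOP10 (-0.51 to 0.76) had intervals across 0.

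NPM1, nucleophosmin, a chaperone that holds the outer layer of the nucleolus together, rose from 532, 614 and 417 CPM at 0 h to 686, 844 and 820 CPM at 4 h and 1418, 1213 and 1014 CPM at 8 h (1.23 ± 0.22, limma adjusted p = 6.56e-05). NOLC1, a chaperone of snoRNPs, rose from 230, 246 and 186 CPM to 320, 295 and 359 CPM at 4 h (0.56 ± 0.18, limma adjusted p = 0.0314) and 409, 365 and 370 CPM at 8 h (0.79 ± 0.18, 9.64e-04). Its 4 h call was lost without 0 h replicate 1 or 3 (adjusted p = 0.0744 and 0.192) or DMSO 4 h replicate 1 or 3 (0.0657 and 0.115). None of the 3 rises was called with plain library sizes, where the 8 h differences were 0.42 for NPM1, 0.05 for GNL3L and -0.01 for NOLC1. Processed pseudogenes of NPM1 could take part of its reads, and its 3 transcript entries differ in the table (summed deposited CPM 9581 against 3047).

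**Figure D3:**
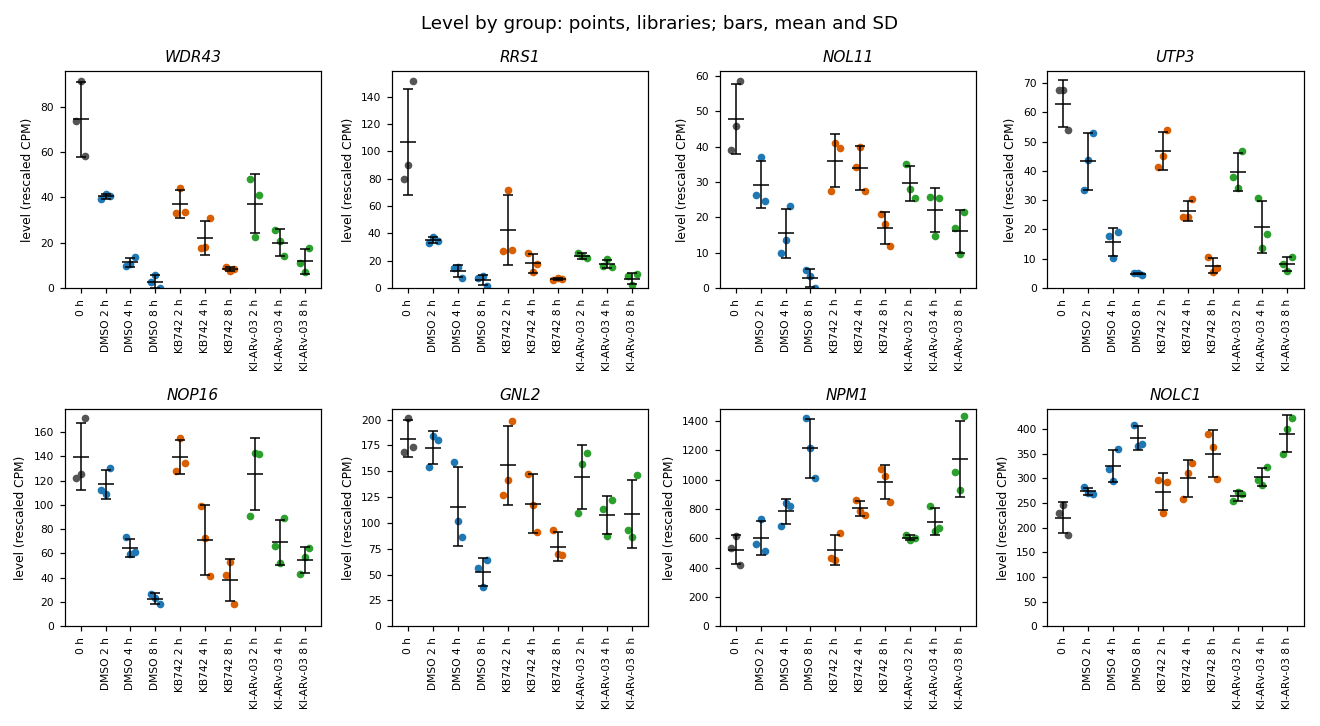
Level in rescaled CPM of 8 genes by group; points are libraries and bars the mean and SD of 3. WDR43, RRS1, NOL11 and UTP3 drop stepwise from 0 h to DMSO 8 h, and with either inhibitor NOL11 stands above DMSO at 8 h.

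MYC, the only gene outside the list followed in full, was at 32.4, 39.5 and 13.0 CPM at 0 h. With DMSO it was at 1.83, 10.1 and 7.49 CPM at 2 h, 7.88, 3.60 and 3.81 CPM at 4 h, and 1.25, 0.389 and 0 CPM at 8 h (-4.19 ± 0.59 at 8 h, limma adjusted p = 3.64e-06; -2.20 ± 0.59 at 4 h, 0.00933, or 0.064 with a pseudocount of 0.25). The 8 h values lie below the worth of 3 reads in their libraries (1.87, 1.17 and 2.78 CPM). No DMSO library reached the lowest library of 0 h. With KB742 and KI-ARv-03 it lay between 0 and 4.75 CPM in all 18 libraries, and no difference from DMSO passed the test (lowest adjusted p = 0.432).

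Of 121 other genes of ribosome assembly, in lists written with earlier results of these data known, 67 were lower and 12 higher at 8 h with DMSO, where 29.2% of all genes were lower and 20.1% higher. Their median was -1.07. Of 38 other small subunit factors 25 were lower and 0 higher, of 43 other large subunit factors 24 and 5, and of 15 genes of RNA polymerase I and its factors 8 and 0. The lists of other snoRNP proteins and of the RNA exosome split, with 4 lower and 5 higher of 12, and 6 lower and 2 higher of 13. All these counts are under TMM scaling. The lists were not counted with plain library sizes, where 462 of all genes were higher instead of 2287. The largest fall was that of NGDN (-5.29 ± 0.39, limma adjusted p = 1.62e-10), a processome factor. The largest rise was that of NHP2 (2.14 ± 0.35, 1.93e-05), an H/ACA core protein whose symbol the rule does not match.

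Did CDK9 inhibition change these levels? At 2 and 4 h no member passed the test against DMSO, and at 8 h a few stood higher with the inhibitors than with DMSO. With KB742, limma called 0 of 46 at 2 h (1 at an unadjusted p under 0.05; 0.0263% of all genes called) and 0 at 4 h (3 unadjusted; 0.114%). With KI-ARv-03 it called 0 at 2 h (1 unadjusted, 0.0263% called) and 0 at 4 h (1 unadjusted, 0.0614% called). Of all 11406 genes, 351 and 548 were at such an unadjusted p with KB742, and 340 and 450 with KI-ARv-03. edgeR and DESeq2 called 0 in these 4 comparisons as well. At 8 h, 3 members were higher with KB742 (1.24% of all genes higher) and 4 with KI-ARv-03 (1.94%), and 0 were lower with either. The 3 fell to 1 without DMSO 8 h replicate 3 or any 1 KB742 8 h library, and the 4 to 2 without DMSO 8 h replicate 2 or 3 or KI-ARv-03 8 h replicate 1, and to 1 without KI-ARv-03 8 h replicate 3. The members' median difference from DMSO was 0.32 with KB742 and 0.25 with KI-ARv-03, beside -0.02 and 0.00 for all genes, and both share the DMSO libraries. With plain library sizes the members' medians were 0.57 and 0.45 (all genes 0.20 and 0.19), and with the CPM as deposited 0.60 and 0.52 (0.26 and 0.25). The test of the effect at 8 h against that at 2 h called 0 members (lowest adjusted p = 0.333, NOL11 with KI-ARv-03).

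NOL11 had the largest difference with each inhibitor. At 8 h its level was 20.9, 18.2 and 11.9 CPM with KB742 and 17.1, 9.52 and 21.6 CPM with KI-ARv-03, against 4.99, 3.50 and 0 CPM with DMSO. All inhibitor libraries lay above all DMSO libraries, and all lay below the lowest 0 h library (39.2 CPM). The differences were 2.55 ± 0.45 (limma adjusted p = 0.00210) and 2.44 ± 0.45 (0.00261), and ended as calls in fits of the 2 groups alone (0.257 and 0.185). At 4 h the KB742 libraries held 34.4, 40.0 and 27.5 CPM and the DMSO libraries 9.85, 13.6 and 23.2 CPM, which did not overlap either (adjusted p = 0.875).

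WDR43 was at 9.26, 7.56 and 8.20 CPM with KB742 and 10.96, 6.88 and 17.8 CPM with KI-ARv-03, against 2.50, 5.83 and 0 CPM with DMSO, and neither inhibitor group overlapped DMSO. The difference with KB742 was 1.69 ± 0.45 (limma adjusted p = 0.0485). Its call was lost without DMSO 8 h replicate 1 or 3 (adjusted p = 0.0625 and 0.350) and without KB742 8 h replicate 1, 2 or 3 (0.142, 0.0892 and 0.0963). With replicate 3 of DMSO, the shallowest library, left out the difference was 0.98, and edgeR and DESeq2 gave adjusted p-values of 0.255 and 0.185. The difference with KI-ARv-03 was 2.07 ± 0.45 (limma adjusted p = 0.0114), and it was lost without DMSO 8 h replicate 3 (1.382, 0.0962) or KI-ARv-03 8 h replicate 3 (1.76, 0.102).

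UTP11L, a late processome factor, was at 49.9, 36.8 and 31.3 CPM with KB742 against 21.2, 19.8 and 8.34 CPM with DMSO (1.28 ± 0.34, limma adjusted p = 0.0496). With KI-ARv-03 it was at 43.8, 28.0 and 33.2 CPM, and did not pass. The KB742 call was lost without DMSO 8 h replicate 3 (0.93, adjusted p = 0.300) or KB742 8 h replicate 1, 2 or 3 (0.198, 0.0960 and 0.0671), and in edgeR (0.1).

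With KI-ARv-03, NOP16 was at 43.0, 57.1 and 64.3 CPM against 26.8, 23.3 and 18.5 CPM with DMSO (1.22 ± 0.32, limma adjusted p = 0.0377). Leaving out any 1 of DMSO 8 h replicates 2 and 3 or KI-ARv-03 8 h replicates 1, 2 and 3 ended that call (adjusted p = 0.0513, 0.134, 0.0526, 0.0532 and 0.179). GNL2 was at 93.0, 86.8 and 147 CPM against 56.2, 37.7 and 64.0 CPM (1.03 ± 0.27, limma adjusted p = 0.0403). The call ended without DMSO 8 h replicate 1 or 2 (adjusted p = 0.0593 and 0.107) or KI-ARv-03 8 h replicate 1 or 3 (0.0725 and 0.256). With KB742, NOP16 (42.7, 52.9 and 18.6 CPM) and GNL2 (93.0, 70.1 and 68.6 CPM) did not pass.

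The fall with DMSO and the difference from an inhibitor use the same DMSO 8 h libraries, so they are not independent. Not every member that fell with DMSO stood higher with an inhibitor. RRS1 was at 6.04, 7.56 and 6.71 CPM with KB742 at 8 h and 8.53, 2.12 and 10.4 CPM with KI-ARv-03, overlapping the 7.49, 8.94 and 1.85 CPM with DMSO. NOP2 was at 17.7, 16.1 and 23.1 CPM with KB742 and 14.6, 21.2 and 7.88 CPM with KI-ARv-03, against 14.4, 10.1 and 18.5 CPM. Core members were not called: the difference from DMSO at 8 h had a 95% interval of -1.56 to 0.51 for FBL with KB742, and of -0.35 to 0.41 for NOLC1 with KI-ARv-03.

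KB742 and KI-ARv-03 were given at different doses, so any difference between them is that of a compound at its dose. limma, edgeR and DESeq2 called 0 of 46 members between them at 2, 4 and 8 h, as limma called 0% of all genes. At an unadjusted p under 0.05 in limma were 0, 1 and 2 members, and 232, 158 and 241 of all 11406 genes. The 95% interval of the difference at 8 h (KB742 minus KI-ARv-03) was -0.81 to 1.04 for NOL11 and -1.30 to 0.54 for WDR43, so the data leave room for differences of that size. Of the other pathway genes counted above, 5 were higher than DMSO at 8 h with KB742 (1.24% of all genes) and 5 with KI-ARv-03 (1.94%). Among them were WDR3 of the processome (2.28 ± 0.44, limma adjusted p = 0.00486, and 2.58 ± 0.44, 0.00111) and GTPBP4 of the large subunit (1.23 ± 0.28, 0.0188, and 1.47 ± 0.28, 0.00369). With KB742 the level of WDR3 spread widely (mean 17.8 CPM, SD 13.2). These calls were not repeated with a library left out.

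**Figure D4:**
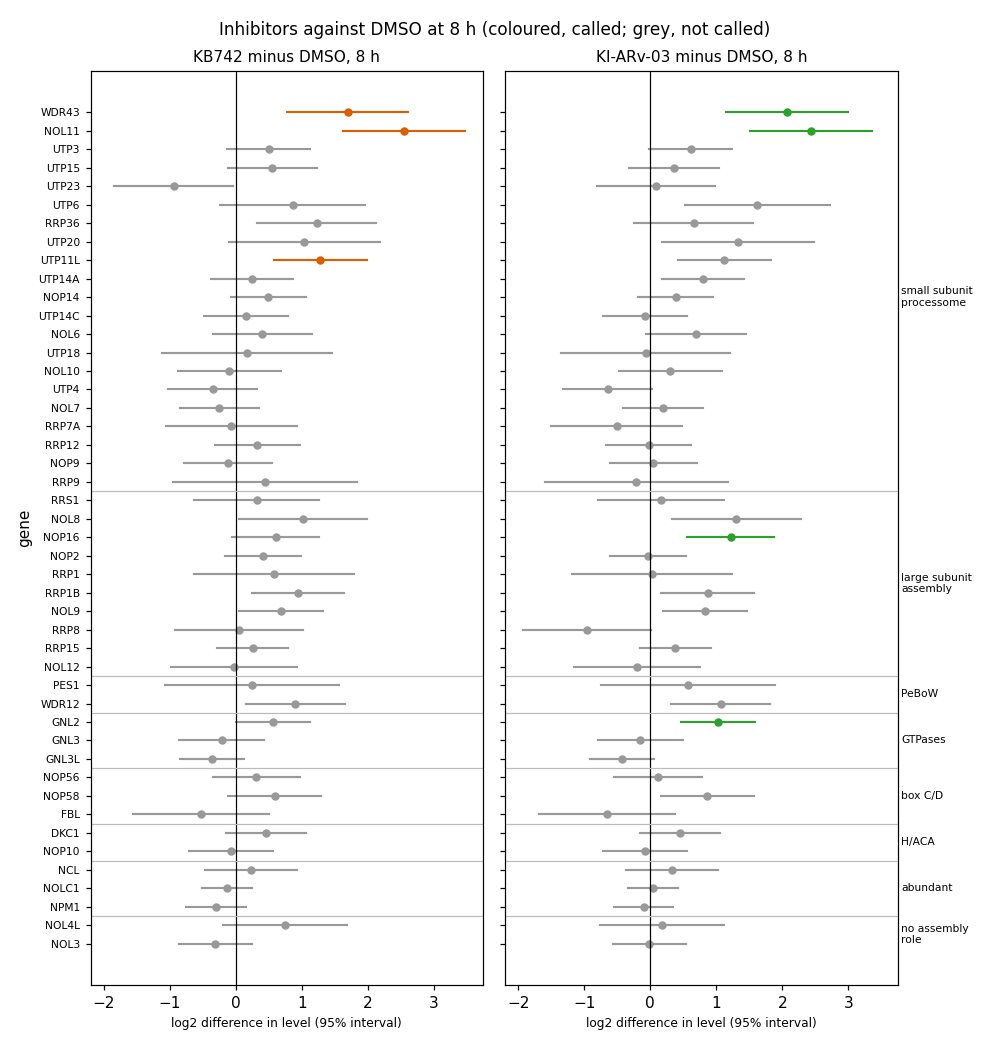
Log2 difference in level from DMSO at 8 h (point) with its 95% interval (bar) for each tested gene, KB742 left and KI-ARv-03 right; coloured genes were called and grey ones were not. NOL11 and WDR43 are coloured in both panels, UTP11L in the left one, and NOP16 and GNL2 in the right one.

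How fast did newly made RNA enter these transcripts? All libraries were labelled, so the conversion that arises without label is not known, and no background was subtracted here. How much of a low value is background was not tested. Conversion could be tested in 42, 39 and 33 members at 2, 4 and 8 h with DMSO, those with 20 or more reads in at least 2 libraries of both groups, so members that fell far, such as WDR43 and NOL11, dropped out by 8 h. Over the 33 members measured in every group, median conversion was 0.283% at 0 h and 0.425%, 0.899% and 1.05% at 2, 4 and 8 h with DMSO. Over 6045 genes measured in the same way it was 0.208%, 0.439%, 0.678% and 0.845%. limma on the arcsine square root of conversion called 1 member higher at 2 h (7.07% of all genes higher), 17 of 39 at 4 h (33.9%) and 17 of 33 at 8 h (42.5%), and 0 lower. The 2 h call, RRS1, was lost without any 1 of the 3 libraries of 0 h or DMSO 2 h replicate 2 or 3 (0 members). The 17 at 4 h went to 9 without 0 h replicate 2 or 3, 11 without DMSO 4 h replicate 2 and 10 without DMSO 4 h replicate 3.

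GNL3 had the highest mean conversion among the 33 members tested at 8 h. Its conversion was 1.00%, 1.67% and 2.09% at 0 h, 3.22%, 6.75% and 3.41% at 2 h, 5.81%, 11.3% and 15.5% at 4 h, and 27.5%, 27.6% and 23.3% at 8 h with DMSO (limma adjusted p = 0.00324 at 4 h and 5.64e-07 at 8 h). On the scale of log2(percent + 0.1) the call at 4 h ended (0.0558). Every library of a time lay above every library of the times before, but for the ranges of 2 h and 4 h, which overlapped. RRS1 rose from 0.763%, 1.09% and 1.81% at 0 h to 2.12%, 8.89% and 6.33% at 2 h (limma adjusted p = 0.0366) and 15.1% and 12.6% at 4 h (4.57e-05), the third library having under 20 reads.

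UTP3 rose from 0.134%, 0.182% and 0.0290% to 4.38%, 6.87% and 4.40% at 4 h (limma adjusted p = 3.67e-04). NOP56, a scaffold of box C/D particles, rose from 0.629%, 1.73% and 0.540% to 6.08%, 6.02% and 4.56% at 4 h (5.03e-04) and 2.39%, 5.91% and 4.72% at 8 h (0.00274), although its level did not pass the test. RRP36 and RRP7A were also among the largest at 4 h, at 4.52% ± 0.312 and 4.44% ± 1.18 (SD, n = 3). NOP9, which binds precursor RNA of the small subunit, rose from 0.179%, 0.557% and 0% to 2.04%, 3.90% and 5.32% at 8 h (limma adjusted p = 1.06e-04).

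The lowest mean conversions among tested members at 8 h with DMSO were those of NOP58, NPM1 and FBL. NOP58 was at 0%, 0.457% and 0%, against 0.203%, 0.422% and 0.727% at 0 h, and did not pass. FBL reached 0.154%, 0.224% and 0.319% at 8 h with DMSO, from 0.0790%, 0.0250% and 0.0480% (limma adjusted p = 0.0120), and the call was lost without 0 h replicate 2 (0.0505) or DMSO 8 h replicate 3 (0.0657). NPM1 was at 0.116%, 0.251% and 0.201%, overlapping 0.0740%, 0.0680% and 0.191% at 0 h (adjusted p = 0.366), while its level rose. NOLC1 rose from 0.290%, 0.186% and 0.0140% to 0.511%, 1.09% and 1.21% (limma adjusted p = 0.00243). NCL rose from 0.132%, 0.179% and 0.177% to 0.753%, 1.23% and 0.424% (0.00961), a call lost without DMSO 8 h replicate 2 (0.0766). NOP10 rose from 0.157%, 0.124% and 0% to 0.18%, 0.408% and 2.11% (0.0285), a call lost without 0 h replicate 3 (0.14) or DMSO 8 h replicate 3 (0.271). PES1, WDR12 and DKC1 did not pass at 8 h.

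Across the 39 members with a value, conversion at 4 h with DMSO went with the log2 difference in level at 8 h (Pearson r = -0.463, Spearman rho = -0.461). This is a description across genes, which share libraries and differ in depth and in the T content of the part read. The 15 of them that fell by 8 h had a median conversion of 1.28% at 4 h, and the other 24 one of 0.734%.

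**Figure D5:**
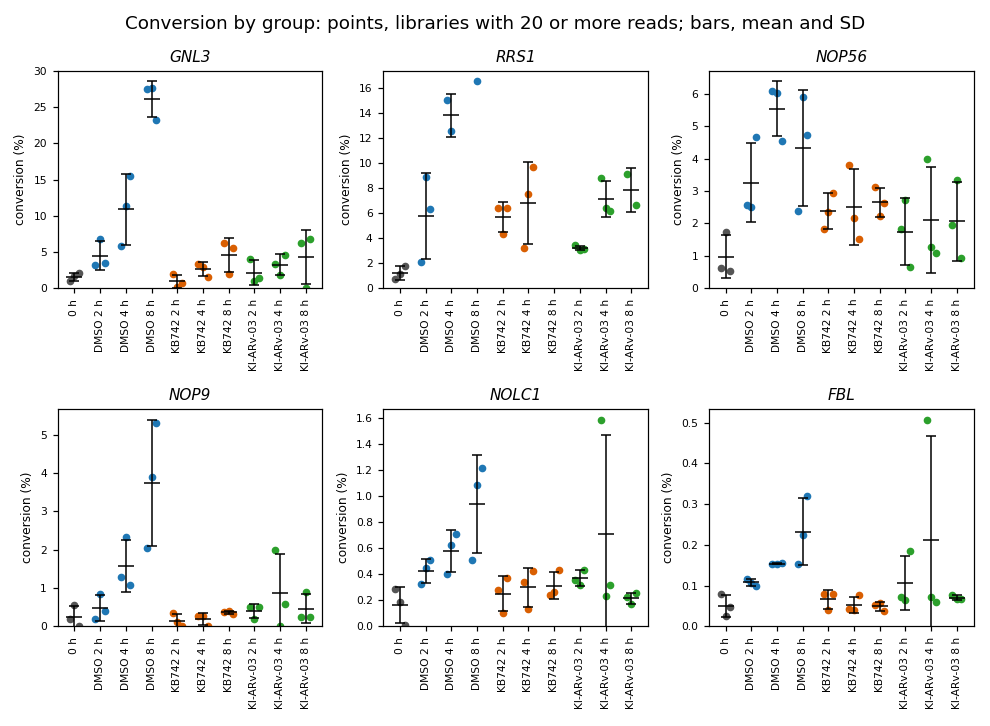
Conversion in percent of 6 genes by group; points are libraries with 20 or more reads, bars the mean and SD, cut off at 0. GNL3 climbs to 23.3% to 27.6% at DMSO 8 h and stays at or below 6.77% with either inhibitor, while FBL stays at or below 0.506% in all libraries.

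By 8 h, conversion stood lower with either inhibitor than with DMSO. KB742 left the median of the 33 members at 0.277%, 0.372% and 0.363% after 2, 4 and 8 h. The same median under KI-ARv-03 was 0.369%, 0.945% and 0.305%, where DMSO gave 0.425%, 0.899% and 1.05%. The KI-ARv-03 value at 4 h rests on replicate 1, in which each of the 33 was at 0.506% or above and the median was 2.02%, against 0.302% and 0.471% in replicates 2 and 3. Against DMSO, limma called 0 of 42 members at 2 h with either inhibitor, and 0.26% (KB742) and 0.294% (KI-ARv-03) of all genes. At an unadjusted p under 0.05 were 7 members with KB742 (1144 of all 8075 genes) and 4 with KI-ARv-03 (1050 of 8150). At 4 h it called 4 of 39 lower with KB742 (15.4% of all genes lower) and 1 of 39 with KI-ARv-03 (5.9%). The count at 8 h was 11 of 33 lower under KB742 (33.7% of all genes) and 12 of 33 lower under KI-ARv-03 (36.2%), with 0 higher under either. The members' shares at 8 h are near those of all genes.

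The 4 members at 4 h with KB742 were GNL3, NOP9, RRS1 and UTP3, and the count was 0 to 2 when any 1 library of KB742 or DMSO at 4 h was left out (0 without DMSO replicate 2 or 3 or KB742 replicate 1 or 2, 1 without DMSO replicate 1, 2 without KB742 replicate 3). The 1 member with KI-ARv-03 was NOP56, a call that ended without DMSO 4 h replicate 1 too (adjusted p = 0.112). Without KI-ARv-03 4 h replicate 1, whose mean conversion stood apart, 4 were called. It was 4 as well without all 3 libraries that stood apart, where 1533 of all 7236 genes were lower. The count was 0 without DMSO 4 h replicate 2 or 3 or KI-ARv-03 4 h replicate 2 or 3. Without DMSO 8 h replicate 2, the deepest of its group, the counts at 8 h went from 11 to 6 with KB742 and from 12 to 5 with KI-ARv-03. Part of this is that RRP1B and UTP14C, without a value in DMSO 8 h replicate 3, could no longer be tested.

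GNL3 had the largest difference again, at 6.22%, 1.96% and 5.54% with KB742 and 6.22%, 0% and 6.77% with KI-ARv-03 at 8 h, against 27.5%, 27.6% and 23.3% with DMSO (limma adjusted p = 3.86e-05 and 7.43e-06). On the scale of log2(percent + 0.1) the call with KB742 ended (0.0614). GNL3L was at 0.330%, 0.243% and 0.360% with KB742 and 0.0460%, 0.0520% and 0.207% with KI-ARv-03, against 1.56%, 2.07% and 5.78% (2.64e-04 and 2.38e-05). NOP9 was at 0.368%, 0.395% and 0.327% with KB742 and 0.245%, 0.895% and 0.237% with KI-ARv-03, against 2.04%, 3.90% and 5.32% (9.36e-04 and 0.00110). In these 3 genes no inhibitor library reached the lowest DMSO library.

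DKC1, the pseudouridine synthase, was at 0.0590%, 0.0490% and 0.0470% with KB742 at 8 h against 0.792%, 0.826% and 1.57% with DMSO (limma adjusted p = 0.00215). With KI-ARv-03 it was at 0.515%, 0.323% and 0.196% and did not pass. NOLC1 was lower with both (limma adjusted p = 0.0393 for KB742, 0.0121 for KI-ARv-03), and both calls ended without DMSO 8 h replicate 2 (0.124 and 0.0501) or replicate 3 (0.148 and 0.0622), the KB742 one also without KB742 8 h replicate 1 or 2 (0.0985 and 0.0975). FBL was lower with both as well (0.0164 and 0.0418), at 0.0530%, 0.0580% and 0.0370% for KB742 and 0.0780%, 0.0670% and 0.0670% for KI-ARv-03. The KB742 call ended without DMSO 8 h or KB742 8 h replicate 3 (0.0850 and 0.0530), and the KI-ARv-03 call without DMSO 8 h replicate 2 or 3 (0.0874 and 0.160) or any 1 KI-ARv-03 8 h library (0.0694 to 0.0945). GNL2, RRP12, RRP1B and UTP14C were called with both inhibitors too, NOL3 with KB742, and NCL, NOP14 and NOP16 with KI-ARv-03. UTP14C, a retrocopy of UTP14A, may share reads with it.

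Most of these last calls ended when 1 library of 8 h was left out. Under KB742, GNL2 and RRP12 lost theirs without DMSO replicate 2 (adjusted p = 0.0864 and 0.135) or replicate 3 (0.0570 and 0.0597), and RRP12 also without KB742 replicate 3 (0.104). RRP1B lost its KB742 call without KB742 replicate 1 or 2 (0.0591 and 0.127), UTP14C without KB742 replicate 2 (0.0651), and NOL3 without DMSO replicate 2 (0.0700). RRP1B and UTP14C had values in DMSO replicates 1 and 2 only, so without either of these libraries they could not be tested. Under KI-ARv-03, NCL lost its call without DMSO replicate 2 (0.177) or KI-ARv-03 replicate 2 or 3 (0.0992 and 0.0883), and NOP16 without DMSO replicate 2 (0.329) or KI-ARv-03 replicate 2 (0.149). RRP12 lost its KI-ARv-03 call without DMSO replicate 2 or 3 (0.163 and 0.0714) or KI-ARv-03 replicate 1 or 3 (0.105 and 0.124). On the log2 scale RRP12 lost both calls (0.0603 and 0.0635), RRP1B and UTP14C those of KB742 (0.182 and 0.0520), and NOP16 that of KI-ARv-03 (0.0545).

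Between KB742 and KI-ARv-03, limma called no member for conversion (0 of 43, 40 and 36 at 2, 4 and 8 h), as it called 0% of all genes. At an unadjusted p under 0.05 were 0, 4 and 1 members, and 219 of 8381, 770 of 7808 and 162 of 6783 genes.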

How the data were processed

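The members and the gene lists were chosen with earlier results of these data known. The deposited table gives 2 values per transcript and library. The first, headed CPM, is a signal scaled to a common library total, per the file headers, and whole read counts were recovered from it (100% of values above 0 were whole within 0.05). The second is the conversion fraction, per the file headers, here in percent; its numerator, denominator and depth are not in the table. Libraries were 3′-end QuantSeq with an ERCC spike-in, per the labels' protocols, and the genome was hg19, per the submitters' processing notes. For aligner and caller, versions and settings: not given in the sources used here. Rows without a symbol held 0.478% of the reads summed over all rows.

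Each gene was its messenger RNA entry with the highest summed signal. Levels passing filterByExpr (edgeR 4.0.16, minimum count 10) were tested with limma 3.58.1 (R 4.3.3, trended variances) on log2(rescaled CPM + 1), so fold changes of low genes are understated. Conversion was tested with limma on its arcsine square root, values under 20 reads missing. All 30 libraries entered 1 fit of 10 groups, 12 comparisons each, adjusted by Benjamini-Hochberg over all genes. The median 95% interval of a log2 difference had a half-width of 0.866. Intervals and floors (3 reads) cover counting error or library spread only, without molecular identifiers. Both tests were checked on simulated data. There, conversion was set above the group means of FBL and NPM1, and the level of all genes had a single spread setting. The check therefore does not cover such low conversions or the uneven spread of these libraries. Alternatives included DESeq2 1.42.0, edgeR's quasi-likelihood test, other scalings, pseudocounts and filters, the 2 groups alone and each library left out; leaving out the 3 libraries that stood apart was chosen after seeing the data. Genes were named by rule: in each comparison up to 6 called members with the largest change, 12 core members, and MYC. Other steps ran in Python (3.11.15; pandas 2.3.3, numpy 2.4.6), with figures drawn in matplotlib 3.10.9.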

Additional observations from a re-analysis of the deposited data

How the results depend on the processing

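Of 70 results for named genes, 33 kept their direction and their call in all alternatives tried. Of 875 alternative values, 732 kept the call, 142 lost it and 1 turned sign, NOLC1 at 8 h with DMSO (-0.01148 with plain library sizes). The members called for level at 2 h with DMSO went from 0 to 2 (library sizes), 2 (CPM as deposited), 1 (2 groups alone), 1 (edgeR) and 4 (DESeq2). Of all genes, 461, 732, 156, 206 and 479 were lower in these settings, against 305 in the main fit, with at most 20 higher. Those called at 8 h with KB742 went from 3 to 5 (library sizes), 1 (no filter), 1 (edgeR) and 0 (2 groups alone), and with KI-ARv-03 from 4 to 0 (2 groups alone), where few degrees of freedom are left. All genes called higher went from 142 to 343, 121, 73 and 0 with KB742, and from 221 to 0 with KI-ARv-03. For conversion, the log2 scale gave 3 at 2 h with DMSO (1), 0 for KB742 at 4 h (4) and 6 at 8 h (11), and 0 for KI-ARv-03 at 4 h (1). All genes called higher with DMSO went from 587 to 645. Those called lower went from 1171 to 445 and 2097 to 1751 with KB742, and from 449 to 29 with KI-ARv-03. A minimum of 50 reads, which tests fewer members, gave 2 and 10 with DMSO at 2 and 8 h (1 and 17), 7 with KB742 at 8 h (11), and 2 and 7 with KI-ARv-03 at 4 and 8 h (1 and 12). Of all genes, 533 of 5820 and 1797 of 4334 were then higher with DMSO. Lower were 1403 of 4153 with KB742, and 366 of 5318 and 1546 of 4218 with KI-ARv-03. The 2 groups alone gave 7 and 6 with KB742 at 4 and 8 h (1371 of all 7603 and 1491 of all 6230 genes lower). Without the 3 libraries that stood apart the counts were 0 at 2 h with DMSO, 7 with KB742 at 4 h and 4 with KI-ARv-03 at 4 h. Of all genes, 340 of 8235 were then higher with DMSO, and 2026 of 7603 and 1533 of 7236 lower with the inhibitors. Apart from the small tests named, the cause was not tested.

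Leaving out 1 library at a time, the level counts ranged from 0 to 1 (DMSO 2 h), 9 to 11 (4 h), 23 to 25 (8 h), 1 to 4 (KB742 8 h) and 1 to 4 (KI-ARv-03 8 h), and the conversion counts from 0 to 1, 9 to 14 and 12 to 18 (DMSO 2, 4 and 8 h), 0 to 2 (KB742 4 h), 6 to 14 (KB742 8 h), 0 to 4 (KI-ARv-03 4 h) and 5 to 14 (KI-ARv-03 8 h). The other counts stayed at 0.

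Replicate numbers are shared by all groups. Same-numbered libraries had a median r of -0.008 over 135 pairs (45 over 0.1), and differently numbered ones 0.011 over 270 pairs (86 over 0.1). Whether the numbers pair the samples cannot be decided from these values, and the main fit used no pairing. With the replicate block the level counts were 24 at 8 h with DMSO, 1 with KB742 and 3 with KI-ARv-03 at 8 h, and the conversion counts kept their size. Depth limits the low levels at 8 h with DMSO, where replicate 3 held 1410618 reads on the genes kept.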
